A study of Homo sapiens with 9 samples.

Results

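The genes described here are 49 genes of the mitotic spindle, the kinetochore and cytokinesis, measured by RNA sequencing in the line HCT116, established from a human colorectal cancer. They were taken by gene symbol from the authors' table of counts, which holds 60651 genes and 1181 repeat subfamilies, and all 49 were found. All 49 also passed the filter on low counts that left 20402 features for testing. The labels put 9 libraries into 3 groups of 3. The first group carried a short hairpin RNA against SLC6A3, the dopamine transporter gene, and received the solvent DMSO (shSLC6A3 DMSO). The second carried a control hairpin and received VXN, an agent whose name and dose the labels do not give in full (shCTRL VXN). The third carried the control hairpin and received DMSO (shCTRL DMSO). The genotype label is WT in all 9, the title of VXN replicate 3 spells the agent VNN, and no label says whether replicates are separate cultures. The spread that p-values rest on may therefore be technical.

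Genes of this kind are switched on late in the cell cycle. Kinases such as PLK1 and the Aurora kinases drive entry into mitosis, the kinetochore couples chromosomes to spindle microtubules, and the spindle checkpoint holds back the anaphase-promoting complex until every chromosome is attached. Separase then cuts the cohesin ring, motor proteins pull and slide the spindle, and the central spindle directs the cleavage furrow. Many of these genes share promoter elements that are read by the DREAM complex in resting cells and by MYBL2 and FOXM1 in dividing cells, so their transcripts are widely read as a measure of proliferation. In RNA from whole cultures, fewer mitotic cells and less RNA per cell cannot be told apart.

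The libraries held 30251364 to 60215785 counts, with 5.26% to 6.96% from mitochondrial genes and 1.68% to 2.12% from repeats. SLC6A3 itself had 0 to 6 counts per library and could not check the labels at this depth. Epithelial markers summed to 4430 to 5480 CPM (counts scaled to the same normalised library size in every library) and none of the 7 was at 0, whereas the 5 leukocyte markers summed to 3.36 to 6.88 CPM, the 4 endothelial markers to 0.673 to 1.58 CPM and the 5 fibroblast markers to 19.1 to 47.8 CPM. COL1A1, at 18.9 to 47.5 CPM, made up nearly all of the fibroblast sum, and CD68, at 3.27 to 6.72 CPM, nearly all of the leukocyte sum. MS4A1 and LUM were at 0 in every library. Differential expression tables from the authors compare shCTRL V with shCTRL D and shDAT D with shCTRL D. These tables and the labels do not compare the same libraries. For each of the authors' deposited tables, a DESeq2 rerun on 1 assignment of the columns gave the same p-value within 1e-06 for all 38859 features compared. In it, the V columns were shSLC6A3 DMSO replicate 1, shCTRL VXN replicate 3 and shCTRL DMSO replicate 3. The DAT columns were shCTRL VXN replicate 1 and shCTRL DMSO replicates 1 and 2. The D columns were shSLC6A3 DMSO replicates 2 and 3 and shCTRL VXN replicate 2. Grouped by the labels, the rerun matched 0% of the shCTRL V table and 1.41% of the shDAT D table. Libraries keep their labels below, the tables keep the authors' names, and no treatment is read off a library's values.

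The 49 genes split the libraries into a low and a high set that cut across the labels. Summed over all 49, the level was 1523, 7024 and 7013 CPM in shSLC6A3 DMSO replicates 1 to 3. It was 6000, 6210 and 1296 CPM in shCTRL VXN replicates 1 to 3 and 6441, 6410 and 1525 CPM in shCTRL DMSO replicates 1 to 3. One library of each labelled group was thus low, and these are the V columns. The genes took 0.127% to 0.15% of all counts in the low libraries and 0.605% to 0.694% in the other 6. Every gene on its own showed the same split: in 49 of 49 the 3 V columns lay below all 6 other columns, where the same held for 26% of the 20402 features, and for the gene with the narrowest gap the lowest of those 6 was still 1.55 times the highest V column. Among the other 6, the highest library exceeded the lowest by between 1.054 times (RACGAP1) and 1.527 times (FOXM1), with a median of 1.208. Epithelial marker sums moved the other way, at 5360 to 5480 CPM in the V columns against 4430 to 4620 CPM in the DAT columns and 4470 to 4730 CPM in the D columns, and their part in the result was not tested. KRT8, the largest part of these sums, overlapped between the V columns (1852 to 2022 CPM) and the D columns (1751 to 1986 CPM). In the DAT columns KRT8 stood at 1751 to 1789 CPM.

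**Figure D1:**
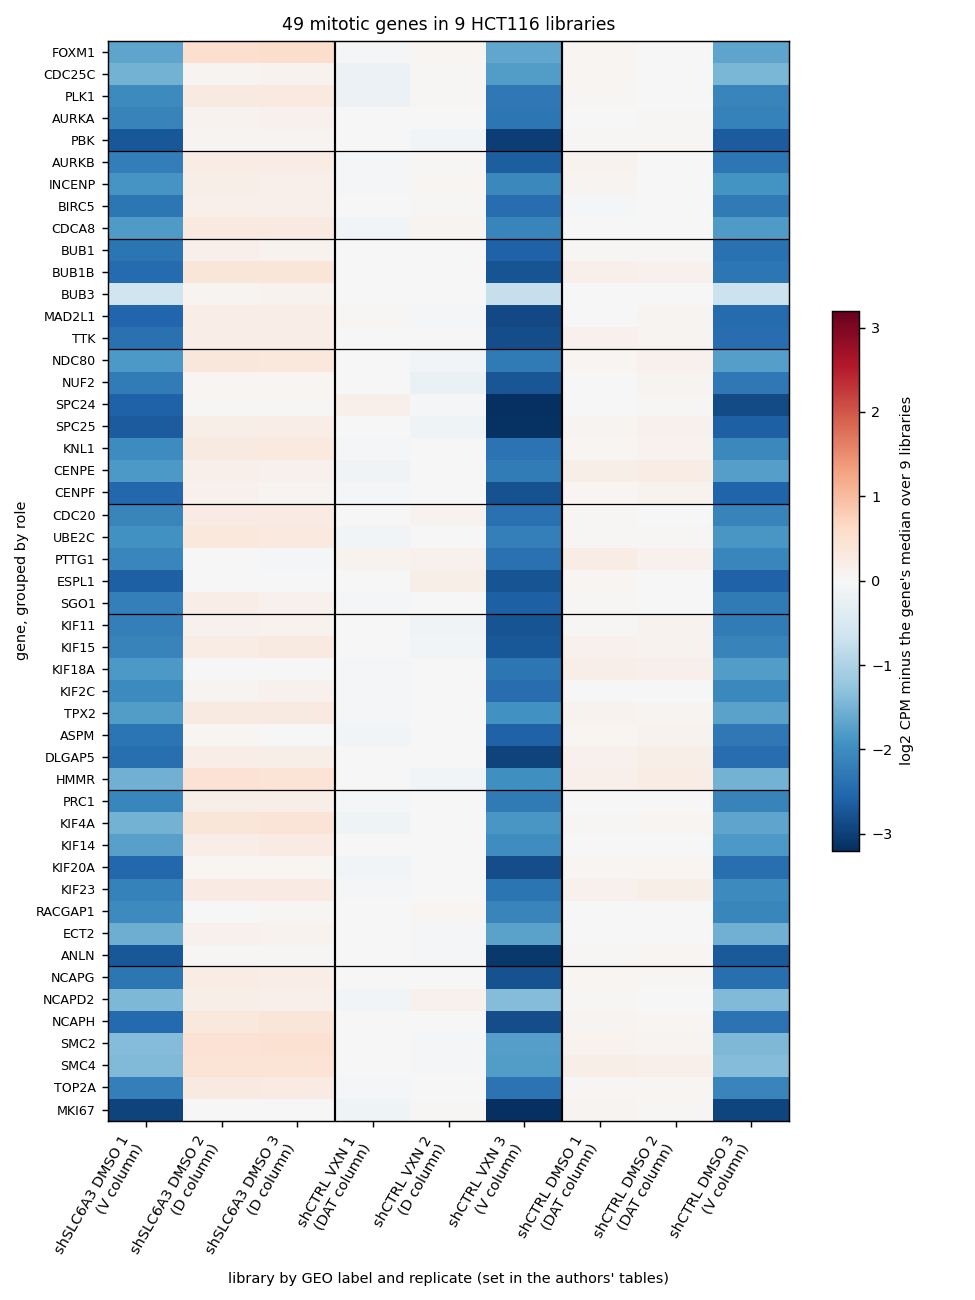
Level of each of the 49 genes in each library, as log2 CPM minus the gene's median over the 9 libraries. Columns are libraries by label, with their set in the authors' tables, and rows are genes grouped by role. The columns of shSLC6A3 DMSO replicate 1, shCTRL VXN replicate 3 and shCTRL DMSO replicate 3 are low in 49 of 49 rows.

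Fitted without pairing, no difference in the 49 genes between the labelled groups passed the test. MKI67, the antigen Ki-67 that coats mitotic chromosomes and marks dividing cells (chromosome 10, 128096659 to 128126385, minus strand, GRCh38), stood at 73.7, 571 and 577 CPM in shSLC6A3 DMSO, at 519, 587 and 62.2 CPM in shCTRL VXN and at 611, 582 and 74.4 CPM in shCTRL DMSO. Each group held 1 low and 2 high libraries, and the groups overlapped over nearly their whole range. Its mean was 407 ± 289 CPM in shSLC6A3 DMSO and 422 ± 302 CPM in shCTRL DMSO (SD, n = 3 each), a log2 fold change of -0.05 (SE 1.05). In shCTRL VXN it averaged 389 ± 285 CPM, against 422 ± 302 CPM in shCTRL DMSO (SD, n = 3 each), a log2 fold change of -0.12 (SE 1.05).

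For shSLC6A3 DMSO against shCTRL DMSO, edgeR's quasi-likelihood test with Benjamini-Hochberg adjustment over all features called 0 of the 49 genes, where 0% of 20402 features were called. The smallest adjusted p among the 49 was 0.999 by edgeR, and 0 of the 49 had an unadjusted p under 0.05, against 930 of the 20402 features. DESeq2 called 0 of the 49 and 0 features. The log2 fold changes ran between -0.19 and 0.46, positive for 41 genes and negative for 8, with a median of 0.12 beside -0.0062 for all features. The largest was that of FOXM1, the forkhead factor that activates late cell cycle genes, at 0.46 (SE 0.71). The sign of the median depended on which libraries were in the fit. It was -0.30 without shCTRL DMSO replicate 3, -0.16 without shSLC6A3 DMSO replicate 2 and -0.14 without shSLC6A3 DMSO replicate 3. It was 0.41 without shCTRL DMSO replicate 1, 0.40 without shCTRL DMSO replicate 2 and 0.57 without shSLC6A3 DMSO replicate 1.

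For shCTRL VXN against shCTRL DMSO, edgeR likewise called 0 of the 49, where 0.0098% of features, or 2 of 20402, were called. No gene of the 49 had an unadjusted p under 0.05, against 384 features, and DESeq2 called 0 of the 49 and 20 features. Log2 fold changes lay between -0.29 (CENPE) and 0.07, with 43 negative, and the median was -0.10 beside 0.0041 for all features. The median was 0.18 without shCTRL DMSO replicate 1, 0.17 without shCTRL DMSO replicate 2 and 0.36 without shCTRL VXN replicate 3. It was -0.53 without shCTRL DMSO replicate 3, -0.38 without shCTRL VXN replicate 1 and -0.41 without shCTRL VXN replicate 2. With standard errors of 0.30 to 1.05 on the log2 scale, these comparisons do not show that the genes were alike in the labelled groups.

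With same-numbered VXN and DMSO libraries of the control hairpin treated as pairs, 4 of the 49 genes were lower in libraries labelled shCTRL VXN. Such libraries deviated together from their group means. Replicate 3 is the low library in both groups, so this cannot tell whether replicates 1 and 2 pair by number. No label says what a number stands for. In the authors' tables both replicate 1 libraries are DAT columns and both replicate 3 libraries are V columns. Replicate 2 is a D column in shCTRL VXN and a DAT column in shCTRL DMSO. By that assignment only the replicate 2 pair crosses sets, so the 4 calls below cannot be read as an effect of VXN. In edgeR with the replicate number as a block on these 6 libraries, an alternative added after seeing the data, 4 of the 49 were called lower and 0 higher, where 0.435% of 19769 features were called lower and 205 in all. CENPE had a log2 fold change of -0.32 (SE 0.06, adjusted p of 0.0114 by edgeR) and HMMR one of -0.31 (SE 0.06, adjusted p of 0.0158 by edgeR). SMC4, an ATPase subunit of condensin, was at -0.27 (SE 0.05, adjusted p of 0.0242 by edgeR) and KIF18A, a kinesin that dampens chromosome movements, at -0.28 (SE 0.07, adjusted p of 0.0492 by edgeR). Each of the 4 was lower in shCTRL VXN than in shCTRL DMSO in 3 of 3 pairs. They were called on these same pairs, so this adds no support. SMC4, for example, stood at 200.5, 194 and 58.2 CPM in shCTRL VXN against 228, 226 and 76.8 CPM in shCTRL DMSO, so that the low libraries, replicate 3 of each, form 1 of the pairs. The median over the 49 was -0.15, beside 0.0021 for all features, and with all 9 libraries in the blocked fit 0 of the 49 and 0 features were called.

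**Figure D2:**
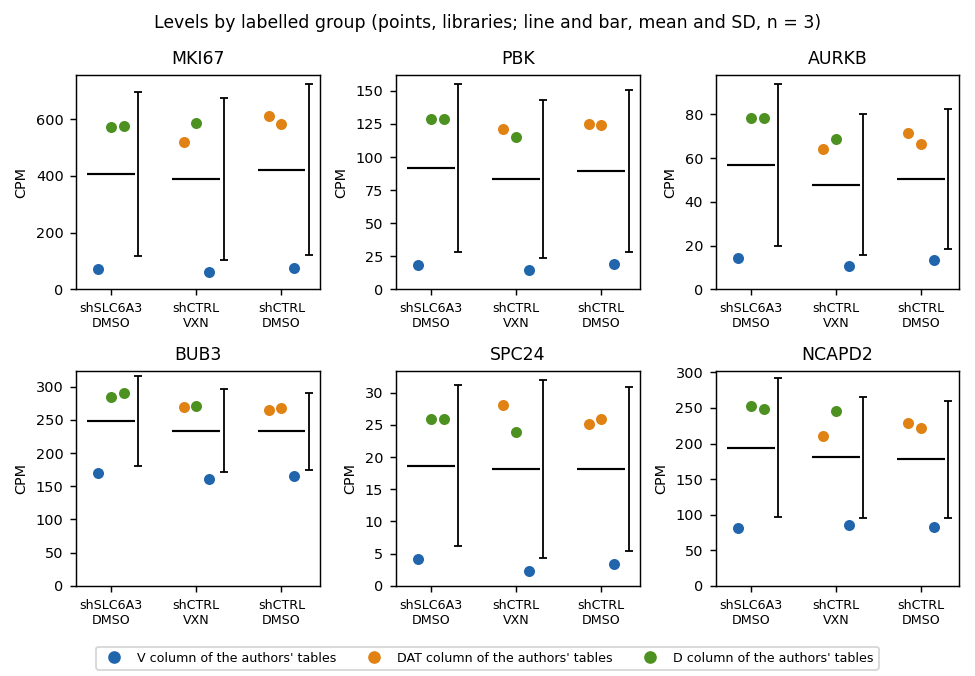
CPM of 6 of the genes by labelled group, from left to right shSLC6A3 DMSO, shCTRL VXN and shCTRL DMSO, with points for libraries coloured by their set in the authors' tables and the mean and SD of each group (n = 3). Each group holds 1 point well below the other 2, as for MKI67 at 73.7, 62.2 and 74.4 CPM.

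In the authors' comparison of shCTRL V with shCTRL D, all 49 genes were lower. The authors' deposited table called 49 of the 49 lower at an adjusted p below 0.05 (DESeq2), where 22.7% of 24274 features were called lower and 44% were called in either direction. The authors' deposited table had 48 of the 49 at least 2-fold lower, against 7.14% of features, and the exception was BUB3. The median log2 fold change of the 49 in the authors' deposited table was -2.39, beside -0.0016 for all features. The values in the authors' deposited table ran from -3.06 for MKI67 to -0.78 for BUB3, with quartiles of -2.66 and -2.11 and 9 genes above -2. These deposited fold changes are shrunken, and for 48 of the 49 they were smaller in size than unshrunken ones from the same columns. Mean CPM in the V columns was 12.1% to 58.9% of that in the D columns, with a median of 19.3%. The count of 49 was unchanged when any 1 of the 6 libraries was left out of a DESeq2 rerun, with medians between -2.48 and -2.28.

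**Figure D3:**
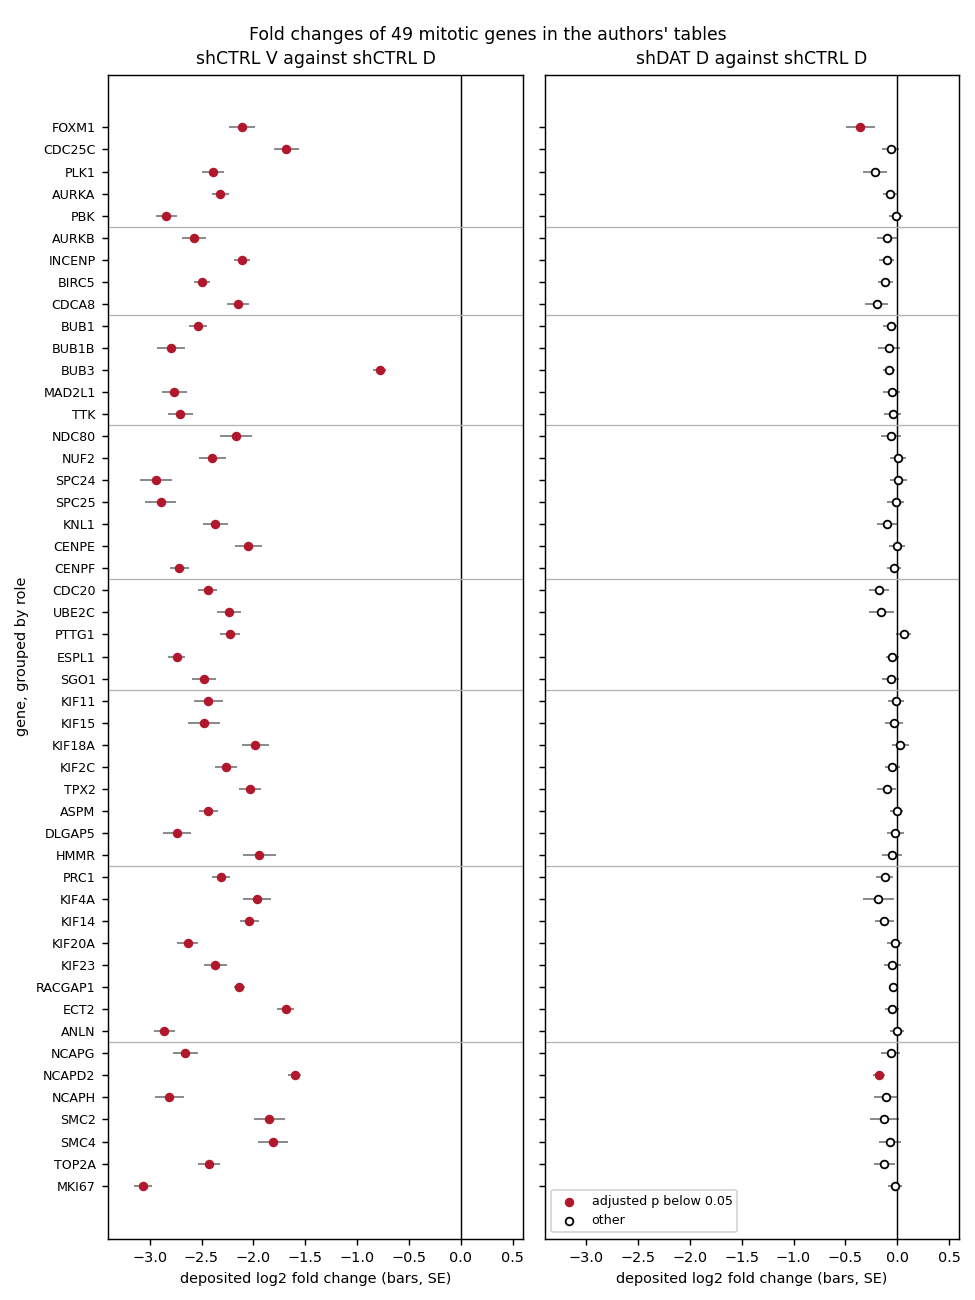
Log2 fold changes of the 49 genes as the authors deposited them, with bars for the deposited SE, for shCTRL V against shCTRL D on the left and shDAT D against shCTRL D on the right. Filled points have an adjusted p below 0.05. On the left all 49 are filled and lie between -3.06 and -0.78, and on the right 2 are filled.

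Among the kinases and regulators of mitotic entry, PBK, a mitotic serine/threonine kinase, was the lowest. It stood at 18.6, 129 and 128 CPM in shSLC6A3 DMSO, at 121, 115 and 15.01 CPM in shCTRL VXN and at 125, 124 and 19.1 CPM in shCTRL DMSO. The authors' deposited table gave it a log2 fold change of -2.84 (SE 0.10). CDC25C, the phosphatase that activates CDK1, had the smallest change of the group, with 5.71, 17.4 and 17.8 CPM in shSLC6A3 DMSO, 14.3, 16.8 and 4.71 CPM in shCTRL VXN and 17.2, 16.4 and 5.92 CPM in shCTRL DMSO. The authors' deposited table put CDC25C at -1.68 (SE 0.12). FOXM1, PLK1 and AURKA lay between them. The authors' deposited table had all 5 genes of the group lower, at a median of -2.32, and their V means were 14.2% to 31.5% of the D means.

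The chromosomal passenger complex corrects faulty attachments, with AURKB as its kinase, INCENP as its scaffold, and BIRC5 (survivin) and CDCA8 (borealin) as the subunits that bring it to centromeres. AURKB stood at 14.3, 78.4 and 78.5 CPM in shSLC6A3 DMSO, 64.2, 68.6 and 10.7 CPM in shCTRL VXN and 71.5, 66.6 and 13.5 CPM in shCTRL DMSO. INCENP stood at 25.2, 107 and 105 CPM in shSLC6A3 DMSO, 91.4, 98.1 and 22.5 CPM in shCTRL VXN and 99.3, 94.0 and 24.96 CPM in shCTRL DMSO. Both genes were low in the same 3 libraries, AURKB by the wider margin. All 4 genes were lower in the authors' deposited table, from -2.57 (SE 0.12) for AURKB to -2.11 (SE 0.08) for INCENP, with BIRC5 and CDCA8 between them.

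Of the 5 spindle checkpoint genes, 4 were at least 2-fold lower in the authors' deposited table and 1 was not. BUB1B, the checkpoint protein BubR1, stood at 22.2, 163 and 161 CPM in shSLC6A3 DMSO, 122, 123 and 18.2 CPM in shCTRL VXN and 139, 135 and 24.7 CPM in shCTRL DMSO. BUB3 (chromosome 10, 123154277 to 123170467, plus strand), the adaptor that brings BUB1 and BubR1 to kinetochores, stood at 171, 285 and 290.0 CPM in shSLC6A3 DMSO, 269, 271 and 162 CPM in shCTRL VXN and 265, 267 and 166 CPM in shCTRL DMSO. The V columns of BUB3 thus kept 58.9% of the mean of the D columns, against 14.6% for BUB1B. In the authors' deposited table BUB1B was at -2.79 (SE 0.14) and BUB3 at -0.78 (SE 0.06), both with an adjusted p below 0.05. BUB1, MAD2L1 and the kinase TTK, which start and carry the checkpoint signal, lay between them, and the group's median in the authors' deposited table was -2.71.

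The kinetochore genes SPC24 and SPC25 had the largest changes after MKI67. SPC24, a subunit of the NDC80 complex that anchors it to the inner kinetochore, stood at 4.19, 25.9 and 25.9 CPM in shSLC6A3 DMSO, 28.04, 23.9 and 2.32 CPM in shCTRL VXN and 25.1, 25.9 and 3.43 CPM in shCTRL DMSO. CENPE, the kinesin that moves chromosomes to the spindle equator, stood at 18.3, 73.0 and 71.2 CPM in shSLC6A3 DMSO, 60.5, 65.0 and 13.7 CPM in shCTRL VXN and 74.3, 76.4 and 19.0 CPM in shCTRL DMSO. Among the high libraries SPC24 varied little and CENPE more. The authors' deposited table gave SPC24 -2.94 (SE 0.16) and CENPE -2.05 (SE 0.13), with all 7 genes of the group lower and a group median of -2.40. NDC80, NUF2 and SPC25, the partners of SPC24 in the complex, and KNL1 and CENPF, large proteins of the outer kinetochore, lay between these ends.

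The authors' deposited table had all 5 genes of anaphase control lower. ESPL1, the protease separase that cuts cohesin, stood at 12.9, 79.8 and 78.5 CPM in shSLC6A3 DMSO, 79.7, 89.5 and 11.7 CPM in shCTRL VXN and 82.4, 77.2 and 13.1 CPM in shCTRL DMSO. PTTG1, the separase inhibitor securin, stood at 20.3, 86.2 and 82.2 CPM in shSLC6A3 DMSO, 93.5, 95.6 and 16.6 CPM in shCTRL VXN and 101, 94.2 and 20.3 CPM in shCTRL DMSO. The protease and its inhibitor were low together. ESPL1 was at -2.74 (SE 0.08) and PTTG1 at -2.23 (SE 0.09) in the authors' deposited table, the ends of the group of 5, which also holds CDC20, UBE2C and SGO1.

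Among spindle motors and assembly factors, DLGAP5, a microtubule-binding protein of the kinetochore fibres, stood at 20.2, 126 and 122 CPM in shSLC6A3 DMSO, 108, 107 and 13.9 CPM in shCTRL VXN and 119, 122 and 19.9 CPM in shCTRL DMSO. HMMR, which helps to orient the spindle, stood at 25.4, 101 and 99.1 CPM in shSLC6A3 DMSO, 73.8, 69.0 and 19.1 CPM in shCTRL VXN and 83.2, 87.3 and 25.9 CPM in shCTRL DMSO. HMMR also spread more among the 6 high libraries, with the highest 1.468 times the lowest. The authors' deposited table gave DLGAP5 -2.73 (SE 0.13) and HMMR -1.94 (SE 0.16), and all 8 genes of the group were lower there. The kinesins KIF11, KIF15, KIF18A and KIF2C and the spindle proteins TPX2 and ASPM lay between them.

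In the group of central spindle and cytokinesis, ANLN, the furrow scaffold anillin, stood at 37.5, 253 and 256 CPM in shSLC6A3 DMSO, 248, 242 and 29.4 CPM in shCTRL VXN and 255, 259.6 and 38.2 CPM in shCTRL DMSO. ECT2, the exchange factor that activates RhoA at the furrow, stood at 59.3, 194 and 188 CPM in shSLC6A3 DMSO, 176, 168 and 53.3 CPM in shCTRL VXN and 177, 175 and 60.6 CPM in shCTRL DMSO. ANLN kept 14.0% of the D mean in the V columns and ECT2 31.5%. In the authors' deposited table ANLN was at -2.86 (SE 0.10) and ECT2 at -1.69 (SE 0.08), with a median of -2.22 over the 8 genes of the group. PRC1, which bundles the central spindle, its motor KIF4A, the kinesins KIF14, KIF20A and KIF23, and RACGAP1, the partner of KIF23, lay between them.

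Condensin and chromosome structure genes had the widest range after the checkpoint. NCAPD2, a regulatory subunit of condensin I (chromosome 12, 6493356 to 6531955, plus strand), stood at 81.9, 252 and 248 CPM in shSLC6A3 DMSO, 210.5, 246 and 85.1 CPM in shCTRL VXN and 228, 222 and 82.8 CPM in shCTRL DMSO. Its V columns lay close together. MKI67 and NCAPD2 marked the ends of the group of 7 in the authors' deposited table, at -3.06 (SE 0.09) and -1.60 (SE 0.06). SMC2 and SMC4, the paired ATPase subunits that condensin I and II share, lay close together at -1.85 (SE 0.15) and -1.81 (SE 0.15) in the authors' deposited table. NCAPG, NCAPH and TOP2A, the topoisomerase that untangles sister chromatids, lay between SMC2 and MKI67.

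Levels per length give an order of these genes and ratios between subunits of a complex. The length used is that of all annotated exons of a gene together, not of the transcript expressed. The order of genes and the size of a ratio depend on that choice. In TPM (counts divided by exon length and scaled to the same total in every library), CDC20, the activator of the anaphase-promoting complex, ranked first of the 49 in all 9 libraries and TPX2, the activator of Aurora A, ranked second in all 9. CDC20 had 76.2 to 91.6 TPM in the V columns, 392 to 424 TPM in the DAT columns and 458 to 484 TPM in the D columns. TPX2 had 67.4 to 77.8 TPM in the V columns, 242 to 287 TPM in the DAT columns and 275 to 318 TPM in the D columns. UBE2C, the ubiquitin-conjugating enzyme of the same complex, was next in the DAT and D columns, followed by PBK. In the V columns BUB3, UBE2C, NCAPD2 and ECT2 came next. Within the passenger complex BIRC5 was highest, with 29.1 to 32.4 TPM in the V columns, 157 to 162 TPM in the DAT columns and 172 to 179 TPM in the D columns. Among kinetochore genes CENPF was highest in the DAT and D columns. It had 9.84 to 11.8 TPM in the V columns, 64.3 to 75.1 TPM in the DAT columns and 72.1 to 75.7 TPM in the D columns, and NDC80 lay just above it, at 11.5 TPM each, in shCTRL DMSO replicate 3. The order within a group could differ between sets: NCAPD2 led the condensin group in the V columns and MKI67 in the DAT and D columns. At the low end, SPC24 had 2.68 to 4.76 TPM in the V columns against 29.2 to 29.9 TPM in the D columns, and CDC25C had 4.62 to 5.75 TPM in the V columns against 17.1 to 17.5 TPM in the D columns.

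**Figure D4:**
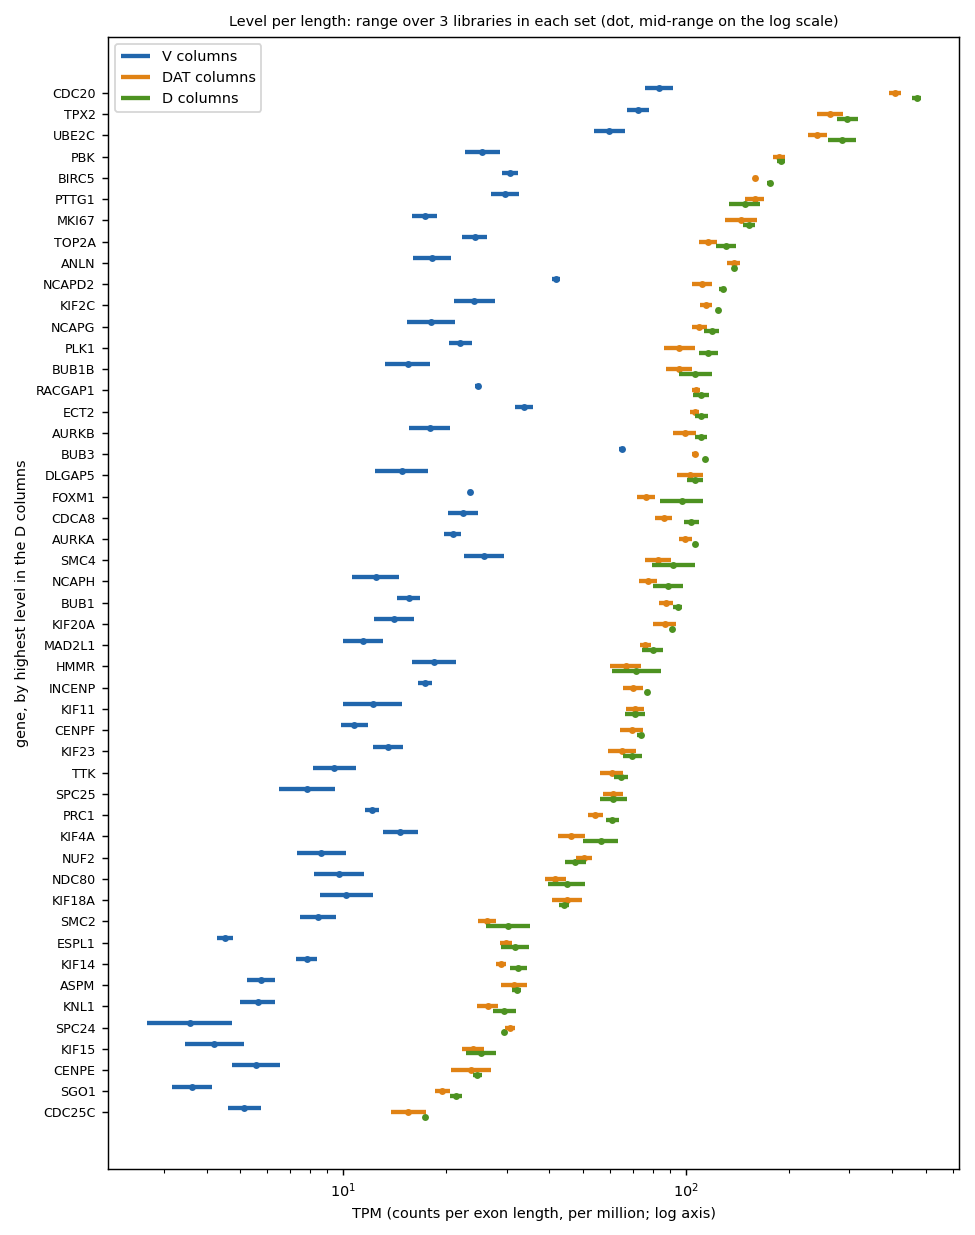
Level per exon length of the 49 genes in TPM on a log axis, as the range over the 3 libraries of each set in the authors' tables, with V above DAT and D for each gene. For CDC20, at the top, the V columns span 76.2 to 91.6 TPM and the D columns 458 to 484 TPM.

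Ratios of TPM between partners separated the V columns from the others in some pairs and not in others, also within 1 complex. The ratio of BUB3 to BUB1 was 3.92 to 4.42 in the V columns, 1.17 to 1.24 in the DAT columns and 1.15 to 1.23 in the D columns. The ratio of NCAPD2 to NCAPG, another condensin I subunit, was 1.92 to 2.78 in the V columns, 0.997 to 1.03 in the DAT columns and 1.01 to 1.16 in the D columns. In both pairs the V columns did not overlap the others. ECT2 to RACGAP1, its binding partner at the central spindle, was 1.31 to 1.45 in the V columns, 0.989 to 0.993 in the DAT columns and 0.907 to 1.1 in the D columns, again without overlap. Within the NDC80 complex, NUF2 to NDC80 was 0.849 to 0.931 in the V columns, 1.17 to 1.23 in the DAT columns and 1.01 to 1.12 in the D columns. NUF2 to SPC24 was 2.13 to 2.74 in the V columns, 1.51 to 1.74 in the DAT columns and 1.52 to 1.71 in the D columns. The V columns stood apart in both, below the others for the first ratio and above them for the second. SMC4 to SMC2 stood at 3.0 to 3.2 in the V columns, 3.07 to 3.24 in the DAT columns and 3.0 to 3.05 in the D columns. SPC25 to SPC24 was 1.92 to 2.43 in the V columns, 1.81 to 2.15 in the DAT columns and 1.92 to 2.25 in the D columns. For SMC4 to SMC2 and SPC25 to SPC24 the V columns overlapped the DAT columns. These pairs were chosen with their values known and were not tested.

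In the authors' comparison of shDAT D with shCTRL D, which shares its D columns with the table for shCTRL V, the genes lay close to no change. The authors' deposited table called 2 of the 49, both lower, where 5.62% of 10403 features were called lower and 6.62% in either direction. That share of the 49 is close to the background. FOXM1 (chromosome 12, 2857681 to 2877155, minus strand) stood at 109.7 CPM in shCTRL VXN replicate 1 and at 118 and 113 CPM in shCTRL DMSO replicates 1 and 2, the DAT columns, against 165 and 167 CPM in shSLC6A3 DMSO replicates 2 and 3 and 119 CPM in shCTRL VXN replicate 2, the D columns. The last of these libraries lies just above the DAT columns. The authors' deposited table gave FOXM1 a log2 fold change of -0.36 (SE 0.14) with an adjusted p of 0.0295 (DESeq2). NCAPD2 was at 210.5, 228 and 222 CPM in the DAT columns against 252, 248 and 246 CPM in the D columns, with no overlap, and at -0.18 (SE 0.06) in the authors' deposited table with an adjusted p of 0.0295 (DESeq2). The median over the 49 in the authors' deposited table was -0.06, beside -0.04 for all features. There 45 of the 49 values were negative, as were 6961 of all 10403 features.

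The D columns were not alike for these genes. In 43 of the 49, shCTRL VXN replicate 2 lay below both other D columns, as it did in 43.9% of the 20402 features. In 25 of the 49 it lay within the range of the DAT columns, against 44.7% of features. The DAT columns lay below all 3 D columns in 8 genes, where 9.96% of features did so, and below the 2 shSLC6A3 D columns in 36, where 32.7% of features did so. In a DESeq2 rerun without shCTRL VXN replicate 2, 28 of the 49 were called lower, where 22.7% of 21018 features were. The rerun's unshrunken log2 fold changes then had a median of -0.19 over the 49, with FOXM1 at -0.59 (SE 0.05) and NCAPD2 at -0.22 (SE 0.05). By role these were all 4 genes of the chromosomal passenger complex, 6 of 7 condensin and chromosome genes, 4 of 5 checkpoint genes, 3 of 5 entry genes, 5 of 8 cytokinesis genes, 2 of 5 anaphase genes, 2 of 7 kinetochore genes and 2 of 8 motor and assembly genes. Without any other single library of the comparison, 0 of the 49 were called, and at most 8 features were called lower and 5 higher. In edgeR with no library left out 0 of the 49 and 0 features were called. These counts of 0 say nothing particular of the 49. No member was 2-fold lower in the authors' deposited table for this comparison, where 0.0288% of features were.

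Promoter windows of the genes were searched for the elements that late cell cycle genes are known for. RefSeq windows on GRCh38.p14, from 250 bases before to 50 bases after the start, were matched by symbol for 39 of the 49. The cell cycle homology region, or CHR element, was searched as TTTGAA or TTCGAA and the NF-Y box as CCAAT, on both strands. Where a CHR element runs straight into ATTGG, the reverse complement of the NF-Y box, the 2 matches share a base. The windows below run from 150 bases before to 30 bases after the start, written 5′ to 3′ on the gene's strand, with matches to either motif in capitals. The first 8 show 1 gene of each role group in which the CHR element lies near the start. SPC24 shows a gene without a match to the element and NCAPD2 a gene whose only match lies far upstream. Other spellings of the element were not searched. All 10 were chosen with the matches known.
PLK1: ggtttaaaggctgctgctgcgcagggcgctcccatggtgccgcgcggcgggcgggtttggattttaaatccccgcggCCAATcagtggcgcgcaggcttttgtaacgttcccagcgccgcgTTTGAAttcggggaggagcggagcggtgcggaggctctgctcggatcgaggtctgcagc
CDCA8: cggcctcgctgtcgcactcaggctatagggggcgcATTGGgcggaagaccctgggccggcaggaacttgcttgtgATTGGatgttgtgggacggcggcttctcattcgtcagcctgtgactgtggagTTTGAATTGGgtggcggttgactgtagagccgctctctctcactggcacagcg
BUB1: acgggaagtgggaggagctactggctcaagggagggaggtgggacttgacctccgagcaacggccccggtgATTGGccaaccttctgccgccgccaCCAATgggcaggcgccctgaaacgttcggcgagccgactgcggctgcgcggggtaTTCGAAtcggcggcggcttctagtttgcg
SPC25: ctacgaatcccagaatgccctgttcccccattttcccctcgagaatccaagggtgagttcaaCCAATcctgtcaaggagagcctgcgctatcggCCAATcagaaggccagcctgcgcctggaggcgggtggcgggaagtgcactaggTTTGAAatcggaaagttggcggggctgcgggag
ESPL1: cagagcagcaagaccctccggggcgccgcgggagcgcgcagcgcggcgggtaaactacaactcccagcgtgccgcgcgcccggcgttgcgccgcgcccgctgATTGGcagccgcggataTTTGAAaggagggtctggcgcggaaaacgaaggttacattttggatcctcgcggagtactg
KIF11: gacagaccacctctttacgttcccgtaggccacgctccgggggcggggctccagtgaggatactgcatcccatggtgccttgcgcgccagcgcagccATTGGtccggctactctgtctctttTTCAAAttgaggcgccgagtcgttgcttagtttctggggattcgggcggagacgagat
PRC1: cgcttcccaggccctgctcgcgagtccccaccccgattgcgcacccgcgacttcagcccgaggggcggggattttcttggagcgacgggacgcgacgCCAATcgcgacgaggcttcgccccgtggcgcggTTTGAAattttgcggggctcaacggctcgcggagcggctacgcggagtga
MKI67: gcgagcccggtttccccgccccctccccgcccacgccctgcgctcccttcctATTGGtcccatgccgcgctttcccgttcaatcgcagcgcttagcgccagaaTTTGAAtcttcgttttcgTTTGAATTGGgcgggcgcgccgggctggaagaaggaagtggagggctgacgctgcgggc
SPC24: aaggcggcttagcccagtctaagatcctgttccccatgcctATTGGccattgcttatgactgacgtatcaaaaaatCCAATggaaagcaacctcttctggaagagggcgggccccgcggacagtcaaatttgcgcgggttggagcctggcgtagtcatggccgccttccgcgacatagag
NCAPD2: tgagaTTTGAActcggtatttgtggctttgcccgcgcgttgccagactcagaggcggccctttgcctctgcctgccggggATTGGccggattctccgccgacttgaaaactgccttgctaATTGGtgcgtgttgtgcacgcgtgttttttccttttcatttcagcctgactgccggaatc
On GRCh38.p14 the windows lie at chr16:23678739-23678918 for PLK1 (plus strand), chr1:37692366-37692545 for CDCA8 (plus strand), chr2:110678034-110678213 for BUB1 (minus strand), chr2:168890401-168890580 for SPC25 (minus strand), chr12:53268149-53268328 for ESPL1 (plus strand). The others lie at chr10:92592980-92593159 for KIF11 (plus strand), chr15:90994506-90994685 for PRC1 (minus strand), chr10:128126394-128126573 for MKI67 (minus strand), chr19:11155753-11155932 for SPC24 (minus strand) and chr12:6493952-6494131 for NCAPD2 (plus strand). In KIF11 the CHR element reads on the opposite strand, as TTCAAA, and in MKI67 it occurs at 2 places.

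A CHR match was present in 32 of the 39 genes (82.1%), against 17.5% of 15123 protein-coding genes with a window. Within 50 bases of the start it was present in 26 (66.7%), against 5.3%. An NF-Y box was present in 29 (74.4%) against 42.5%, and both motifs in 24 (61.5%) against 7.35%. Over the 34 windows with a CHR match, the match nearest to the start lay between 182 bases before the start and 44 bases after it. Some genes have several windows. Such elements are known from many genes of this class, which the 49 were drawn from. AURKB, CENPE, KIF20A, KIF2C, NCAPH, PTTG1 and SPC24 had no match in this window, and their median log2 fold change in the authors' deposited table for shCTRL V was -2.57, against -2.41 for the 32 with a match. A match is a description of letters and says nothing of binding.

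Other genes of the same machinery were mostly lower in the authors' deposited table for shCTRL V. Over all 24274 features there, 22.7% were called lower and 44% in either direction. Of 26 other kinetochore genes, the authors' deposited table for shCTRL V called 23 lower and 1 higher, and their median was -1.78. Its lower genes included KNTC1, a subunit that recruits checkpoint proteins, at -2.66 (SE 0.12) and CENPA, the centromeric histone H3 variant, at -2.22 (SE 0.12). The authors' deposited table gave CENPT, a linker from centromere to NDC80, 0.55 (SE 0.09), and there MIS12 at -0.08 (SE 0.11) and PMF1 at -0.06 (SE 0.10) did not pass the threshold. For 27 other spindle genes of G2 and M phase, the authors' deposited table had a median of -2.20, with 26 lower and 1 higher. The kinesins KIF22 at -2.06 (SE 0.07) and KIFC1 at -2.58 (SE 0.10) were lower in the authors' deposited table, and MAD2L1BP, a silencer of the checkpoint, was higher at 0.29 (SE 0.08).

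The authors' deposited table had all 3 subunits specific to condensin II lower, NCAPD3 among them at -1.84 (SE 0.06). Centriole duplication genes had a median of -1.10 in the authors' deposited table, where 9 of 10 were lower and 1 was higher, with the kinase PLK4 at -2.12 (SE 0.13) and CETN2, a centrin, at 1.19 (SE 0.15). The medians of the other lists lay nearer to 0. Their counts stand beside 22.7% of all features called lower and 44% called in either direction. For 17 genes of the anaphase-promoting complex, the authors' deposited table had a median of -0.25, with 10 lower and 2 higher. The authors' deposited table gave UBE2S, its chain-elongating enzyme, -1.25 (SE 0.07) and its subunit ANAPC16 0.59 (SE 0.06). For 13 cohesin genes, the authors' deposited table had a median of -0.38, with 8 lower and 2 higher, among them the cohesin acetyltransferase ESCO2 at -3.04 (SE 0.15) and the loader subunit MAU2 at 0.62 (SE 0.07). For 10 genes of the phosphatases of mitotic exit, the authors' deposited table had a median of -0.15, with 5 lower and 3 higher, for example PPP1CC at -0.71 (SE 0.07) and ENSA at 0.60 (SE 0.12).

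Genes of the MuvB core and its partners, the proteins that bind CHR elements and E2F sites, had a median of -0.53 in the authors' deposited table. There 8 of 11 were lower and 1 was higher, beside 22.7% of all features called lower and 44% in either direction. The authors' deposited table gave MYBL2, the activating partner, -3.25 (SE 0.15), RBL1, the pocket protein p107, -2.06 (SE 0.11) and LIN37, a core subunit, 0.59 (SE 0.14). For shDAT D, the authors' deposited table called lower 2 of the 24 other kinetochore genes that have an adjusted p there, 1 of 27 other spindle genes, 2 of 10 MuvB genes, 1 of 17 genes of the anaphase-promoting complex and 1 of 9 phosphatase genes, beside 5.62% of all features. It called none of these genes higher. In the authors' deposited table for that comparison, CENPO was at -0.43, CENPN at -0.31 and HASPIN, a histone H3 kinase of mitosis, at -0.42. Of the 7 epithelial markers 4 were higher in the authors' deposited table for shCTRL V, with CDH1, E-cadherin, at 1.04 (SE 0.07). EPCAM at -0.18 (SE 0.10), KRT8 at 0.0093 (SE 0.07) and KRT18 at 0.16 (SE 0.07) did not pass the threshold there. Over all features there, 5184 of 24274 were called higher. None of the leukocyte, endothelial or fibroblast markers was called there. Only 2 of 5 leukocyte and 2 of 5 fibroblast markers had an adjusted p.

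Exons shared with other genes limit a few values, since the sources used here do not state whether counting used strand. In GENCODE 29, 7 of the 49 share over 10% of their exon bases, summed over all overlapping genes. The largest partner is named in brackets. They are PRC1 at 64.92% (AC068831.7, on the same strand), NCAPG at 33.14% (LCORL), SMC4 at 25.64% (TRIM59) and SGO1 at 17.74% (its antisense RNA). FOXM1 follows at 15.94% (ITFG2), PLK1 at 12.5% (an antisense RNA) and BUB1B at 10.21% (a read-through transcript). Their values are uncertain for that reason, by an amount that was not tested. Processed copies took few reads: CDC20P1, the largest, had 77 to 632 counts per library against 2207 to 17667 for CDC20, and KIF4B had 2 to 32 counts against 840 to 5089 for KIF4A.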

How the data were processed

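The labels' protocols name a TruSeq RNA v2 library kit. The submitters' processing notes name fastp 0.20.1, FastQC 0.11.9, STAR, DESeq2 1.34.0 and GRCh38. Which program counted the reads is not stated in the sources used here. The authors deposited raw counts per gene and repeat subfamily, and tables whose base mean is a signal of normalised counts. The log2 fold changes, p-values and adjusted p-values in those tables were also deposited by the authors.

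Groups came from the labels. Same-numbered libraries of shCTRL VXN and shCTRL DMSO deviated together from their group means across features (r of 0.684, 0.72 and 0.894). They were taken as pairs on that ground alone. Replicate 3 is the low library in both groups, so these r cannot tell whether replicates 1 and 2 pair by number. With shSLC6A3 DMSO replicates 1 and 3 every such r was negative, and those numbers were not taken as pairs. Counts were fitted with edgeR 4.0.16 (R 4.3.3, TMM scaling, filterByExpr, quasi-likelihood, Benjamini-Hochberg over 20402 features). The fit was tried first on simulated counts that lacked the split into low and high libraries. That trial does not show how the test performs with a low library in every labelled group. The deposited tables were read as they stand and rerun with DESeq2 1.42.0, only to check the columns behind them and to leave libraries out. The members, the gene lists and the column sets were chosen with earlier results of these data known. Named genes are the largest and smallest change of each role group, the members called for shDAT D, MKI67 and the highest level per length. TPM used GENCODE 29 exon lengths.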

Additional observations from a re-analysis of the deposited data

How the results depend on the processing

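Calls were recomputed with RLE factors, DESeq2, no low-count filter, only the 6 libraries compared, a replicate block and each library left out. The count of 0 genes called between labelled groups was the same in all of these except 1 block, given below, and so was the count of 49 lower in the authors' deposited table for shCTRL V under edgeR, any left-out library and, added after seeing the data, RLE factors or library size alone; with a 2-fold change required it was 48. For shDAT D, the 2 genes called in the authors' deposited table became 0 when a 2-fold change was required, and 0 with edgeR on those columns under TMM, RLE factors or library size alone, where edgeR called 0 features of any kind. With each library left out the count ran between 0 and 28, where 28 was reached without shCTRL VXN replicate 2; the cause was not tested.

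Pairs were taken for VXN only. With the replicate block in the fit of all 9 libraries 0 of the 49 were called in either labelled comparison. With the block on the 6 VXN and DMSO libraries, added after seeing the data, 4 were called lower in libraries labelled shCTRL VXN. With the block on all 9, the medians were 0.51 for shSLC6A3 and -0.12 for VXN; MKI67 reversed to 0.60 for shSLC6A3 under the block. With each library left out, MKI67 lay between -0.55 and 0.44 for shSLC6A3 and between -0.62 and 0.39 for VXN, and BUB3 between -0.10 and 0.30 for shSLC6A3 and between -0.19 and 0.21 for VXN. Without the low-count filter BUB3 was at -0.0019 for VXN, against 0.0064. With 1 low library in every labelled group, standard errors in the unpaired labelled comparisons reached 1.05 on the log2 scale. The part of depth was not tested.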

Other observations

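The promoter elements were also set beside the authors' deposited table for shCTRL V over 11297 protein-coding genes that are not among the 49. In the authors' deposited table, 43.4% of the 523 such genes with a CHR match within 50 bases of the start were lower, and 22% at least 2-fold lower. Of the 723 with both a CHR match and an NF-Y box in the window, 39.1% were lower in the authors' deposited table, and 17.0% at least 2-fold. Of the 5619 with neither motif, 32.2% were lower in the authors' deposited table, and 7.35% at least 2-fold, beside 33.0% and 9.05% over all 11297. These shares are descriptions over genes, which are not independent replicates, and were not tested.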
